A study of Mus musculus with 6 samples.

Results

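Heat shock proteins and DnaJ proteins are the molecular chaperones that fold new polypeptides, refold damaged ones and hand others over for degradation. The genes described here are the protein-coding genes whose symbols begin with Hspa, Hspb, Hspd, Hspe, Hsph, Hsp90 or Dnaj, without Hspbap1 and Hspbp1, which share a prefix but do not belong to these families. There are 72 such genes among the 54532 genes of the count table. They were measured by bulk RNA sequencing of dorsal root ganglia, where the cell bodies of sensory neurons lie among glia. The ganglia came from mice heterozygous for Ash1l, a gene for a histone methyltransferase, labelled Ash1l+/-, and from wild-type (WT) littermates, with 3 libraries in each group. The sources used here do not give the structure of the allele or the age and sex of the mice. Nor do the labels state whether replicates are separate animals, so p-values reflect only how these libraries vary, which may be technical variation.

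The families work as a relay. HSP70 proteins, encoded by the Hspa genes, bind exposed hydrophobic stretches of other proteins in a cycle driven by ATP. DnaJ proteins, also called HSP40s, deliver clients to HSP70 and trigger its ATPase, HSP110 (Hsph1) and related proteins exchange the nucleotide, HSP90 proteins act on later folding states, and small heat shock proteins (Hspb genes) hold unfolded proteins without using ATP. In the mitochondrion the chaperonin Hspd1 and its lid Hspe1 enclose single proteins, and in the endoplasmic reticulum (ER) Hspa5 and Hsp90b1 serve secreted and membrane proteins. Sensory neurons have very long axons, and mutations in HSPB1, HSPB8, HSPB3 and DNAJB2 cause inherited neuropathies of motor or sensory nerves in humans.

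Total counts per library ranged from 17209294 to 20545722. All 12 sensory neuron markers were detected, with a summed level of 11610 to 12020 CPM in the Ash1l+/- libraries and 11400 to 14260 CPM in the WT libraries. CPM here are counts scaled to a common library total with factors from the trimmed mean of M-values (TMM). WT replicate 2 stood apart. Across genes, which are no independent replicates, Pearson's r of its log2 CPM with any other library was 0.846 to 0.877, against at least 0.981 for every pair among the remaining 5. Comparisons are therefore given with all 6 libraries and without WT replicate 2, called the 5 libraries below. Ash1l itself was at 66.5, 66.5 and 68.9 CPM in Ash1l+/- replicates 1, 2 and 3, against 60.9, 30.9 and 54.4 CPM in WT replicates 1, 2 and 3, so its transcript was not lower in the Ash1l+/- libraries. Without the structure of the allele this neither checks nor contradicts the labels, and the genotypes below are as labelled. In bulk tissue fewer cells of a type and less RNA per cell cannot be told apart.

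The chaperone genes took 1.57%, 1.72% and 1.75% of all counts in Ash1l+/- replicates 1, 2 and 3, against 1.495%, 1.35% and 1.501% in WT replicates 1, 2 and 3. The Ash1l+/- shares of raw counts lay above all WT shares. On the TMM scale the groups overlapped, since the members summed to 14800, 16270 and 16750 CPM in Ash1l+/- replicates 1, 2 and 3, against 14050, 17800 and 14320 CPM in WT replicates 1, 2 and 3, with WT replicate 2 the highest. Of these reads, 3 genes supplied 53.5% to 55.9% in the Ash1l+/- libraries, against 53.1% to 61.1% in the WT libraries: Hspa8, the constitutive cytosolic HSP70, and the cytosolic HSP90 genes Hsp90ab1 and Hsp90aa1.

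Levels of different genes were compared per length, as RPKM (TMM-scaled CPM per kilobase of gene length), over the 5 libraries without WT replicate 2. The order began with Hsp90ab1 at a mean of 1003 RPKM, Hspa8 at 755 RPKM and Hsp90aa1 at 525 RPKM. The small heat shock genes Hspb1, at 217 RPKM, and Hspb8, at 174 RPKM, came next, followed by Hspa12a, a distant HSP70 relative, at 131 RPKM and Hspd1 at 110 RPKM. Each of the first 3 was separated from its neighbours in all 5 libraries. Hspb1, at 182 to 258 RPKM, and Hspb8, at 172 to 181 RPKM, lay close together without overlap, while the ranges of Hspa12a, at 117 to 141 RPKM, and Hspd1, at 93.4 to 132 RPKM, overlapped. A further 30 genes lay between 10 and 100 RPKM, 24 between 1 and 10 RPKM and 11 under 1 RPKM. Among the DnaJ genes the highest levels were those of Dnaja1, a cytosolic partner of HSP70, at 63.8 RPKM, Dnaja2 at 60.0 RPKM and Dnajc5, the cysteine string protein of synaptic vesicles, at 42.4 RPKM.

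**Figure D1:**
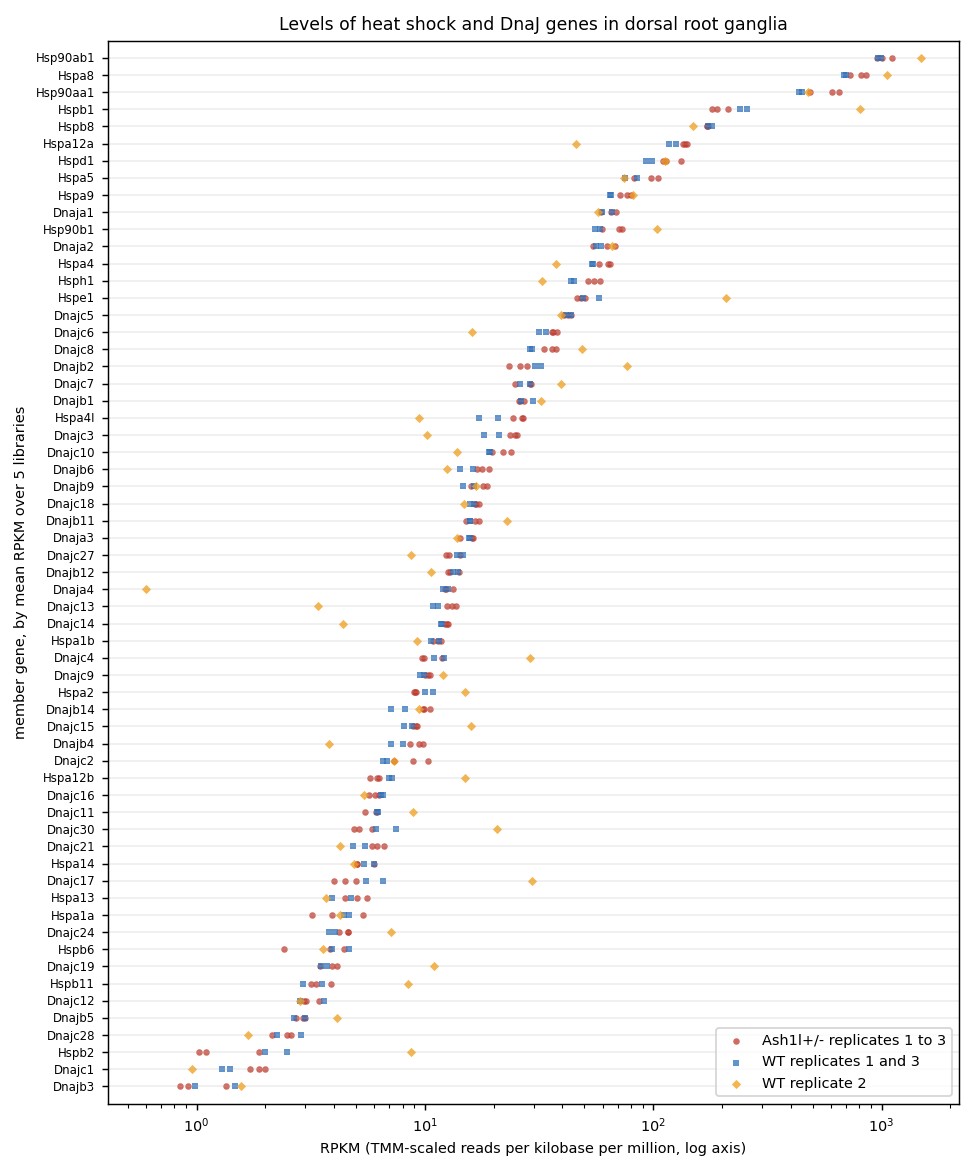
RPKM of the 61 members with a mean of at least 1 RPKM, on a log axis, with 1 point per library and genes ordered by the mean over the 5 libraries without WT replicate 2. The 5 libraries lie close together for most genes, while WT replicate 2 lies far outside them for genes such as Dnaja4, Dnajc17 and Hspe1.

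The classical stress-inducible HSP70 genes were low as counted, although reads shared by near-identical copies may be missing from these values. Hspa1b averaged 11.2 RPKM and its near copy Hspa1a 4.31 RPKM, against 755 RPKM for Hspa8. Genes tied to the germ line were at the bottom: Hspa1l, a testis HSP70, averaged 0.356 RPKM, and Dnajc5g had 0 reads in all 6 libraries. Dnajb7, Dnajb8, Hspb3 and Hspb9 had 5 to 11 reads over all libraries together. These 5 genes did not pass the filter on low counts, and the other 67 members were tested.

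With all 6 libraries no chaperone gene passed the test between the genotypes. The quasi-likelihood test of edgeR called 0 of 67 members higher and 0 lower at an adjusted p of 0.05, the same 0% as among all 16032 genes in each direction, and the smallest adjusted p among members was 0.386. DESeq2 and limma-voom called 0 members as well, and DESeq2 called 35 genes in all. At an unadjusted p of 0.05, 3 of 67 members passed with edgeR, which is 4.48%, against 10.6% of all genes with edgeR. The 3 members that passed with edgeR were Dnajc1, Hsph1 and Hspb2. At the same threshold 8 members passed with DESeq2 and 3 with limma-voom. For these 2 tools the shares of all genes are not given here, and the edgeR share does not stand for them. Every Ash1l+/- library lay above every WT library in 16 members (23.9%), against 19.3% of all genes, and below every WT library in 7 members (10.4%), against 19.2% of all genes.

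Without WT replicate 2, 15 of 67 members rose in Ash1l+/- ganglia, 2 fell and 50 did not pass the test. The share that rose was 22.4%, against 9.39% of the 16395 genes tested, and the share that fell was 2.99%, against 10.4%. The members that rose were Dnajc1, Hspa4l, Dnajc2, Dnajb14, Hsp90aa1, Dnajc3, Hsph1, Hspd1, Dnajb4, Dnajc8, Hsp90b1, Dnajc13, Dnajb6, Hspa9 and Hspa8, and those that fell were Hspb1 and Dnajb2. Every Ash1l+/- library lay above both remaining WT libraries in 25 members (37.3%), against 23.9% of all genes, and below both in 9 members (13.4%), against 25.3% of all genes. The changes were small, from 15.6% higher for Hspa8 to 38.0% higher for Dnajc1, and 21.3% lower for Hspb1. The median log2 fold change over the 67 members was 0.07, against 0.00 over all genes tested. The median absolute log2 fold change was 0.20 in members, against 0.21 over all genes tested. Between WT replicates 1 and 3 the median absolute log2 difference of members was 0.10, a value for single libraries rather than for groups. Of all members, 3 passed narrowly, with adjusted p of 0.0486 for Hspa8, 0.0461 for Hsp90b1 and 0.0448 for Dnajb6, and 3 missed narrowly, with 0.0559 for Hspa5, 0.0619 for Hspa12a and 0.0649 for Hspa4.

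These counts depend on single libraries and on trends along GC content and length. With WT replicate 1 left out as well, 1 member was called higher, Hsp90aa1, and 0 lower. Without Ash1l+/- replicate 2 the counts were 7 higher and 1 lower, without Ash1l+/- replicate 3 they were 6 and 1, and without WT replicate 3 they were 9 and 2. Without Ash1l+/- replicate 1, in contrast, more members were called higher than in the 5 libraries. On the deposited FPKM, on either log2(FPKM + pseudocount) scale, 5 were higher and 1 lower. For the fits without a further library and on FPKM the shares of all genes are not given here. Those counts are therefore not read as a trait of the members. With the trends of each library along transcript GC content and gene length removed, 2 members were called higher, Hsp90aa1 and Hspd1, and 1 lower, Dnaja1. That is 2.99% higher, against 2.60% of all genes, and 1.49% lower, against 4.41% of all genes. Across the 67 members the log2 fold change in the 5 libraries followed the GC content of the transcript with a Spearman rho of -0.70, compared with -0.55 across all genes tested. The members called higher had GC contents of 39.5% to 50.9%, while Hspb1 was at 61.7% and Dnajb2 at 57.3%. All these values come from the same 5 libraries, so the points of both correlations are not independent.

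**Figure D2:**
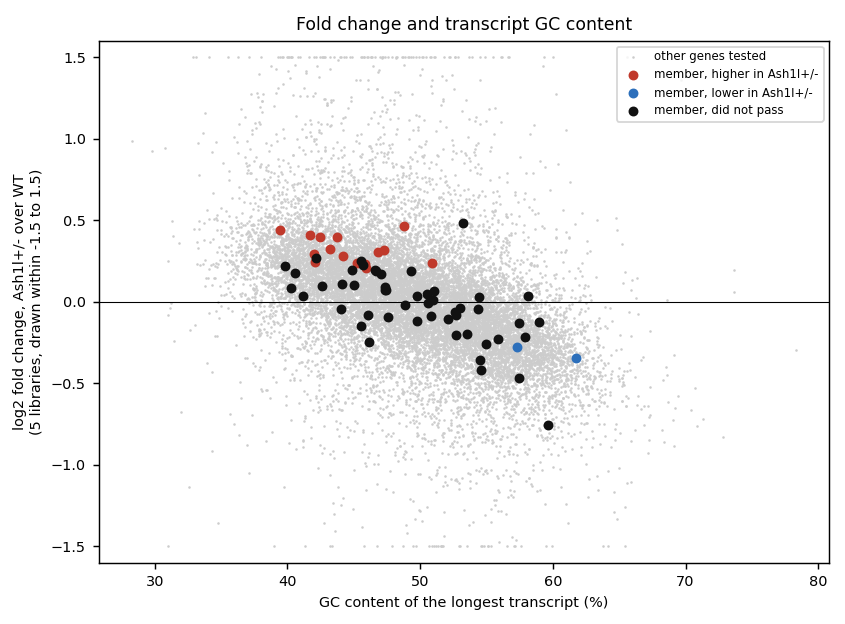
Log2 fold change of Ash1l+/- over WT in the 5 libraries without WT replicate 2, against the GC content of the longest transcript, for members (large points, coloured by the edgeR call) and all other genes tested (grey). Both members and other genes run downward from low to high GC, and the members called higher sit at 39.5% to 50.9% GC.

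Among the cytosolic HSP90 genes, the inducible Hsp90aa1 rose and the constitutive Hsp90ab1 did not pass. Hsp90aa1 (chromosome 12, 110690605 to 110702728 on GRCm38) was at 1920, 2547 and 2376 CPM in Ash1l+/- replicates 1, 2 and 3, against 1757, 1881 and 1718 CPM in WT replicates 1, 2 and 3. Every Ash1l+/- library was above every WT library, with or without WT replicate 2. The log2 fold change came to 0.39 (SE 0.09, adjusted p = 0.00494) in the 5 libraries and 0.35 (adjusted p = 0.386) with all 6. With both trends removed it was 0.27 (SE 0.08, adjusted p = 0.0436). It was the single member called in each of the 5 fits that left out a further library, at adjusted p from 2.04e-05 to 0.0437, but it was not called on the log2(FPKM + pseudocount) scales, at adjusted p of 0.0777 and 0.0813. Hsp90ab1 was at 2864, 3006 and 3318 CPM in Ash1l+/-, against 2970, 4451 and 2887 CPM in WT, and the groups overlapped. Its log2 fold change in the 5 libraries was 0.07 (SE 0.07, adjusted p = 0.562), and with all 6 it was -0.17. Whether the changes of the 2 genes differ from each other was not tested.

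Of the 9 constitutive cytosolic members, Hspa8 and Hspa4l rose and 7 did not pass, against 9.39% of all genes higher and 10.4% lower. With the trends removed 0 of the 9 passed. Hspa8 (chromosome 9, 40800984 to 40810087) was at 3129, 3494 and 3666 CPM in Ash1l+/-, against 2939, 4539 and 3000 CPM in WT, so WT replicate 2 was the highest library and the other WT libraries the lowest. In the 5 libraries the log2 fold change came to 0.21 (SE 0.07, adjusted p = 0.0486). With all 6 it was -0.03, and its sign turned with the scaling, to 0.04 with upper-quartile factors. Hspa4l, an HSP110-like relative that exchanges nucleotide on HSP70, was at 287, 318 and 313 CPM in Ash1l+/-, against 204, 111 and 248 CPM in WT, with no overlap between groups. In the fits it had a log2 fold change of 0.44 (SE 0.08, adjusted p = 0.00162) in the 5 libraries, 0.70 (adjusted p = 0.386) with all 6 and 0.09 (adjusted p = 0.445) with the trends removed. Hsph1 of the heat-inducible group (chromosome 5, 149614287 to 149636376), the HSP110 exchange factor induced by heat, was at 376, 426 and 399 CPM in Ash1l+/-, against 317, 236 and 327 CPM in WT. No Ash1l+/- library of Hsph1 overlapped a WT library. The difference amounted to a log2 fold change of 0.32 (SE 0.07, adjusted p = 0.00606) in the 5 libraries and 0.45 with all 6, and 0.19 (adjusted p = 0.0689) with the trends removed.

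Of the 8 heat-inducible genes of the cytosol, Hsp90aa1, Hsph1 and Dnajb4 rose, Hspb1 fell and 4 did not pass. The shares of all genes were 9.39% higher and 10.4% lower. With the trends removed Hsp90aa1 alone was higher and Dnaja1 alone lower, against 2.60% and 4.41% of all genes. Hspa1a (chromosome 17, 34969190 to 34972156) was at 9.48, 11.6 and 15.97 CPM in Ash1l+/-, against 13.1, 12.6 and 13.8 CPM in WT, with the WT libraries inside the Ash1l+/- range. Hspa1b (chromosome 17, 34956436 to 34959238) was at 30.3, 32.8 and 31.9 CPM in Ash1l+/-, against 29.8, 25.9 and 32.2 CPM in WT, and the groups overlapped. Reads of these near-identical genes may be split between them or left uncounted, and the settings of the counting are not known. Their separate values and their sum are therefore uncertain. Dnajb1, the heat-inducible partner of HSP70, was at 83.1, 87.4 and 83.9 CPM in Ash1l+/-, against 84.8, 103 and 95.1 CPM in WT, and the groups overlapped. Dnaja1 was at 511, 566 and 591 CPM in Ash1l+/-, against 516, 493 and 569 CPM in WT, again with overlap. The log2 fold changes of these 4 genes in the 5 libraries were -0.13 (SE 0.17) for Hspa1a, which turned to 0.19 with the trends removed, 0.03 (SE 0.10) for Hspa1b, -0.08 (SE 0.08) for Dnajb1, which turned to 0.03, and 0.04 (SE 0.08) for Dnaja1, with adjusted p from 0.490 to 0.845. The direction of Dnaja1 turned with the removal of the trends, to -0.24 (SE 0.06, adjusted p = 0.0207).

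Dnajb4, another cytosolic DnaJ protein, was at 75.4, 82.8 and 85.8 CPM in Ash1l+/-, against 62.6, 33.2 and 70.3 CPM in WT, without overlap. It had a log2 fold change of 0.29 (SE 0.08, adjusted p = 0.0186) in the 5 libraries, 0.55 (adjusted p = 0.388) with all 6 and 0.03 (adjusted p = 0.821) with the trends removed.

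**Figure D3:**
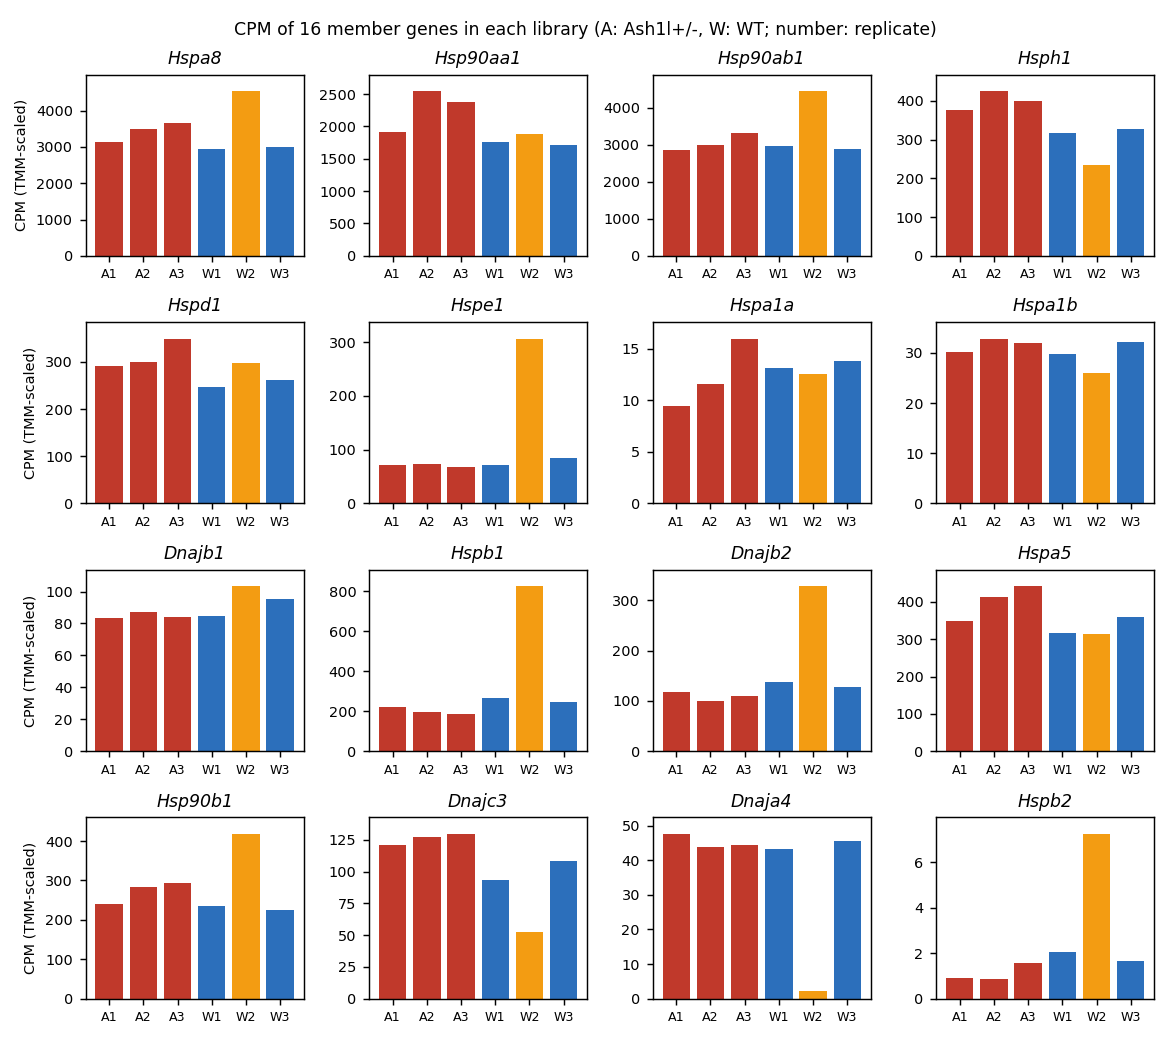
TMM-scaled CPM of 16 members in each library, with Ash1l+/- replicates (A1 to A3, red) left of WT replicates (W1 and W3 blue, W2 orange). Hsp90aa1 and Hsph1 are higher in every Ash1l+/- library than in every WT library, Hspa1a, Hspa1b and Dnajb1 overlap, and WT replicate 2 is far from all other libraries in Hspe1, Hspb1, Dnajb2, Dnaja4 and Hspb2.

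The heat shock factor Hsf1 binds heat shock elements, inverted repeats of the unit GAA in promoters. The promoter sequences of members were searched for exact matches to them. RefSeq promoter windows on GRCm38.p6, from 250 bases before the start of a transcript to 50 bases after it, were matched for 58 members, and 14 had none in the table (Dnajc11, Dnajc12, Dnajc18, Dnajc2, Dnajc22, Dnajc30, Dnajc5, Dnajc5b, Hsp90aa1, Hsp90ab1, Hspa13, Hspa8, Hspa9 and Hspb2). Both strands were searched for the element of 3 units, TTCNNGAANNTTC or GAANNTTCNNGAA, and for the element of 2 units, TTCNNGAA or GAANNTTC, which is contained in it. Only exact matches were counted, so elements with a mismatched base were missed, also next to a shorter match. The 3-unit element was found in 4 members, Hspd1, Hspe1, Hsph1 and Dnajb6, and in 0.662% of all 27025 genes in the table. The 2-unit element was found in 16 members and in 17% of all genes. Of the 4 members with the longer element, Hspd1, Hsph1 and Dnajb6 rose in the 5 libraries and Hspe1 did not pass, against 9.39% of all genes higher. With the trends removed Hspd1 alone of the 4 passed, against 2.60% of all genes higher. A match of letters is a description and says nothing of binding. The following stretches are shown because they hold these elements, in capitals where either form matched, each read 5′ to 3′ on the strand of the named gene. For Hspa1a and Hspa1b, which carry the 2-unit element and did not pass, the windows of both copies were identical at 296 of 300 bases. For Hsph1 the 3-unit element lies after the start, at bases 37 to 49, so only the element is shown.
Hspd1 to Hspe1, the bases between the starts of both genes, chr1:55087933-55088147, minus strand: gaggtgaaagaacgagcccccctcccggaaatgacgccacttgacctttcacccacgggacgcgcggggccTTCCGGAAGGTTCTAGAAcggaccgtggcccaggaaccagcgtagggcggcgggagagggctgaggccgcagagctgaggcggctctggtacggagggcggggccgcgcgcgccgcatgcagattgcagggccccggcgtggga
Dnajb6, chr5:29735812-29735897, plus strand: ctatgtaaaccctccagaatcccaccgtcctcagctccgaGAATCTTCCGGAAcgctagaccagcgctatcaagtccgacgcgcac
Hsph1, chr5:149636288-149636300, minus strand: TTCTGGAAAGTTC
Hspa1a, chr17:34972213-34972300, minus strand: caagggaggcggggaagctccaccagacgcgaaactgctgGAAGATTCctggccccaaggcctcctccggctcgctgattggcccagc
Hspa1b, chr17:34959295-34959382, minus strand: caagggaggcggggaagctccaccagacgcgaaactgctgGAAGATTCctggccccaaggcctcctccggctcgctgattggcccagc

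The mitochondrial chaperonin genes Hspd1 and Hspe1 share the first of these stretches, which lies between their RefSeq starts, and their values were not alike. Hspd1 (chromosome 1, 55077835 to 55088243) was at 291, 300 and 349 CPM in Ash1l+/-, against 247, 297 and 261 CPM in WT. The Ash1l+/- libraries were above WT replicates 1 and 3, while WT replicate 2 lay between them. The log2 fold change came to 0.30 (SE 0.08, adjusted p = 0.0135) in the 5 libraries, 0.22 (adjusted p = 0.446) with all 6 and 0.26 (SE 0.07, adjusted p = 0.0259) with the trends removed. Hspe1 (chromosome 1, 55088132 to 55091307) was at 70.9, 73.8 and 68.2 CPM in Ash1l+/-, against 72.3, 306 and 85.2 CPM in WT. It did not pass in the 5 libraries, with a log2 fold change of -0.15 (SE 0.08, adjusted p = 0.23), and with all 6 it was -1.12 (adjusted p = 0.386). In WT replicate 2, Hspe1 was at 3.89 times and Hspd1 at 1.17 times the mean of the other WT libraries. In the count table the spans of the 2 genes overlap by 112 bases, and the pseudogene Hspd1-ps3 took 1426 reads, against 32242 for Hspd1, so both counts carry some uncertainty.

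Of the 9 mitochondrial members, Hspd1 and 1 other rose and 7 did not pass, against 9.39% of all genes higher and 10.4% lower. With the trends removed Hspd1 alone passed, against 2.60% of all genes higher. The other that rose was Hspa9, the mitochondrial HSP70 that pulls proteins through the inner membrane, at 282, 302 and 315 CPM in Ash1l+/-, against 255, 321 and 257 CPM in WT. In the fits it had a log2 fold change of 0.23 (SE 0.07, adjusted p = 0.034) in the 5 libraries, 0.11 (adjusted p = 0.684) with all 6 and 0.14 (adjusted p = 0.167) with the trends removed. Dnajc30, a mitochondrial DnaJ protein, was at 8.10, 9.76 and 8.57 CPM in Ash1l+/-, against 12.5, 34.3 and 10.1 CPM in WT. The groups of Dnajc30 did not overlap, and its log2 fold change of -0.36 (SE 0.15, adjusted p = 0.104) did not pass. The annotated span of Dnajc30 overlaps Bud23 on the other strand, and the library kit as named does not mark strand. In all, 18 members overlap, on either strand, another protein-coding gene that had reads.

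In the ER group 4 of 10 members rose, 0 fell and 6 did not pass, against 9.39% of all genes higher and 10.4% lower. In this group 9 had a positive log2 fold change in the 5 libraries, with a median of 0.23. Once the trends were removed the median was 0.09 and 0 members passed. Hsp90b1, the HSP90 of the ER (chromosome 10, 86690209 to 86705509), was at 239, 284 and 295 CPM in Ash1l+/-, against 236, 418 and 224 CPM in WT, with WT replicate 2 above all other libraries. It had a log2 fold change of 0.25 (SE 0.08, adjusted p = 0.0461) in the 5 libraries, -0.10 with all 6 and 0.08 (adjusted p = 0.586) with the trends removed. Dnajc3, which binds unfolded proteins in the ER lumen and inhibits the kinase Eif2ak3, was at 121, 127 and 130 CPM in Ash1l+/-, against 93.3, 52.4 and 108 CPM in WT, without overlap. Its log2 fold change was 0.32 (SE 0.08, adjusted p = 0.00861) in the 5 libraries, 0.57 (adjusted p = 0.386) with all 6 and 0.18 (adjusted p = 0.109) with the trends removed. Hspa5 (BiP), the ER HSP70, was at 348, 413 and 442 CPM in Ash1l+/-, against 317, 315 and 358 CPM in WT. Ash1l+/- replicate 1 of Hspa5 lay below WT replicate 3, and the log2 fold change of 0.25 (SE 0.09, adjusted p = 0.0559) in the 5 libraries did not pass. With all 6 it was 0.28 (adjusted p = 0.398).

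Dnajb14, a DnaJ protein anchored in the ER membrane, was at 154, 165 and 156 CPM in Ash1l+/-, against 112, 149 and 129 CPM in WT, without overlap. The fitted log2 fold change was 0.40 (SE 0.08, adjusted p = 0.00229) in the 5 libraries, 0.29 (adjusted p = 0.392) with all 6 and 0.06 (adjusted p = 0.602) with the trends removed. Dnajc1, a membrane DnaJ protein of the ER that binds ribosomes, was at 20.01, 21.8 and 23.3 CPM in Ash1l+/-, against 16.3, 11.1 and 15.1 CPM in WT, without overlap. Its log2 fold change of 0.46 (SE 0.12, adjusted p = 0.00915) was the largest among the members called in the 5 libraries, and it was 0.61 with all 6 and 0.31 (adjusted p = 0.0921) with the trends removed. Reads of Dnajc1 (2033 over all libraries) cannot be told apart from those of Mllt10 where the genes overlap on opposite strands.

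The promoters of 3 ER members carry the ER stress response element, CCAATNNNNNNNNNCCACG or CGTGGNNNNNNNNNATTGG, to which the unfolded protein response factor Atf6 binds together with NF-Y. It was found in Hspa5, Hsp90b1 and Dnajc3 and in 0.137% of all genes in the promoter table. Of these, Hsp90b1 and Dnajc3 rose in the 5 libraries and Hspa5 did not pass, against 9.39% of all genes higher. With the trends removed 0 of the 3 passed. The stretches around the elements, in capitals, are these.
Hspa5, chr2:34772005-34772063, plus strand: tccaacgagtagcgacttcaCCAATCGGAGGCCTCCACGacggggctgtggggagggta
Hsp90b1, chr10:86705513-86705676, minus strand: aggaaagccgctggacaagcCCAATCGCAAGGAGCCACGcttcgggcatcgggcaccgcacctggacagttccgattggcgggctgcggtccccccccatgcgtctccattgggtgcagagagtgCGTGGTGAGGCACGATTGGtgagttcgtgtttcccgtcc
Dnajc3, chr14:118937807-118937865, plus strand: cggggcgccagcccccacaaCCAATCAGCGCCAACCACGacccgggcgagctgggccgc

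Among DnaJ proteins of the ribosome, the spliceosome and the nucleus, 2 of 6 rose and 4 did not pass. The shares of all genes were 9.39% higher and 10.4% lower, and with the trends removed 0 of the 6 passed. Dnajc2, the ribosome-associated chaperone also called MPP11, was at 36.9, 44.8 and 51.9 CPM in Ash1l+/-, against 34.2, 36.9 and 32.8 CPM in WT. Ash1l+/- replicate 1 of Dnajc2 was level with WT replicate 2, and the log2 fold change came to 0.41 (SE 0.11, adjusted p = 0.017) in the 5 libraries, 0.36 (adjusted p = 0.386) with all 6 and 0.22 (adjusted p = 0.218) with the trends removed. Dnajc8, which associates with splicing factors, was at 84.7, 92.3 and 95.4 CPM in Ash1l+/-, against 74.1, 125 and 75.4 CPM in WT, and WT replicate 2 was the highest library. The log2 fold change came to 0.28 (SE 0.08, adjusted p = 0.0167) in the 5 libraries, -0.01 with all 6 and 0.20 (adjusted p = 0.0675) with the trends removed. Dnajc17, another splicing-associated DnaJ protein, was at 5.86, 5.26 and 6.51 CPM in Ash1l+/-, against 8.55, 38.6 and 7.21 CPM in WT. The groups of Dnajc17 did not overlap, and the log2 fold change came to -0.42 (SE 0.17, adjusted p = 0.0902) in the 5 libraries and -1.62 (adjusted p = 0.386) with all 6. Dnajc21, which acts in ribosome biogenesis, was at 29.4, 27.9 and 31.6 CPM in Ash1l+/-, against 26.1, 20.3 and 23.1 CPM in WT, without overlap. Its log2 fold change of 0.27 (SE 0.11, adjusted p = 0.0794) in the 5 libraries did not pass.

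Of the 4 members linked to synaptic vesicles, clathrin and endosomes, 1 rose, 1 fell and 2 did not pass. The shares of all genes were 9.39% higher and 10.4% lower, and with the trends removed 0 of the 4 passed. Dnajc13, an endosomal protein also called RME-8, was at 149, 163 and 157 CPM in Ash1l+/-, against 129, 40.6 and 136 CPM in WT, without overlap. The fits gave a log2 fold change of 0.24 (SE 0.08, adjusted p = 0.0304) in the 5 libraries, 0.62 (adjusted p = 0.446) with all 6 and 0.01 (adjusted p = 0.951) with the trends removed. Dnajb2 (chromosome 1, 75236406 to 75245692), a DnaJ protein enriched in neurons, was at 118, 99.5 and 110 CPM in Ash1l+/-, against 137, 328 and 128 CPM in WT. Every Ash1l+/- library of Dnajb2 was below every WT library. For this gene the log2 fold change came to -0.28 (SE 0.08, adjusted p = 0.0238) in the 5 libraries, -0.85 (adjusted p = 0.386) with all 6 and -0.04 (adjusted p = 0.788) with the trends removed. Dnajc5 was at 302, 282 and 294 CPM in Ash1l+/-, against 290, 275 and 305 CPM in WT, and the groups overlapped.

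The remaining 13 members have no shared compartment, and 1 of them rose, against 9.39% of all genes. With the trends removed 0 of the 13 passed. Dnajb6, a DnaJ protein that holds back aggregation of polyglutamine proteins, was at 103, 116 and 108 CPM in Ash1l+/-, against 86.7, 75.6 and 98.0 CPM in WT, without overlap. Its difference came to a log2 fold change of 0.24 (adjusted p = 0.0448) in the 5 libraries, 0.33 (adjusted p = 0.386) with all 6 and 0.25 (adjusted p = 0.0511) with the trends removed.

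**Figure D4:**
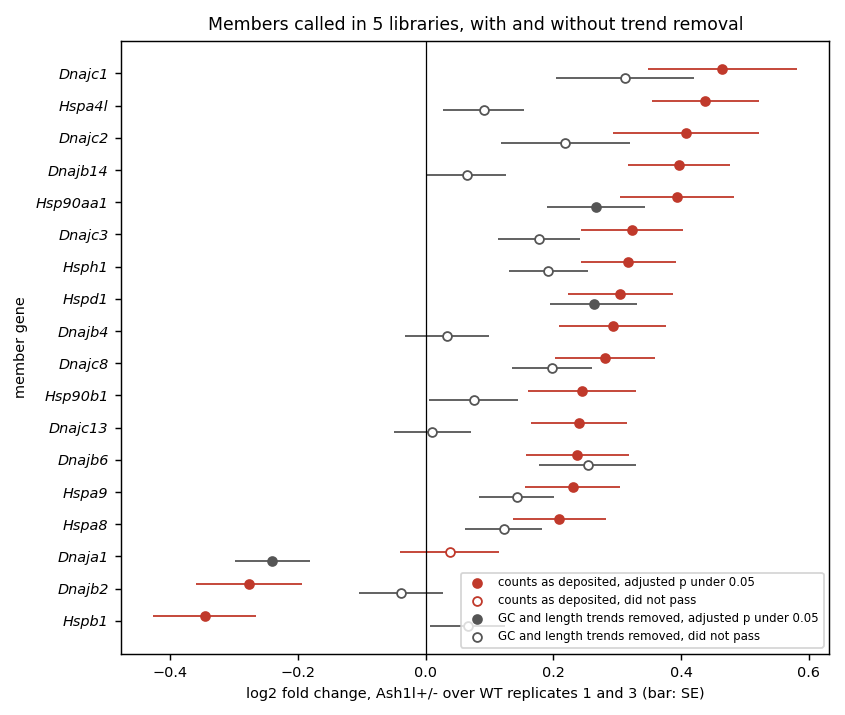
Log2 fold change of Ash1l+/- over WT replicates 1 and 3, with SE, for the 18 members called with the counts as deposited or with GC and length trends removed, where filled points passed an adjusted p of 0.05. Hsp90aa1 and Hspd1 passed in both, 13 rises and both falls passed only before the trends were removed, and Dnaja1 passed only after.

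The tested genes with Hspb symbols had log2 fold changes below 0 in 5 of 6, the exception being Hspb11 at 0.10. Of these 6, 1 fell and 5 did not pass, against 9.39% of all genes higher and 10.4% lower. After trend removal Hspb1 and Hspb8 lay above 0 as well, and 0 of the 6 passed. Hspb1 (chromosome 5, 135887919 to 135889563), which stabilises the cytoskeleton and holds unfolded proteins, was at 220, 197 and 187 CPM in Ash1l+/-, against 266, 826 and 247 CPM in WT. Every Ash1l+/- library was below every WT library. For this gene the log2 fold change came to -0.35 (SE 0.08, adjusted p = 0.00565) in the 5 libraries and -1.15 (adjusted p = 0.386) with all 6. With the trends removed it was 0.07 (adjusted p = 0.568), on the other side of 0. Hspb8, which works with Bag3 in selective autophagy, was at 338, 335 and 335 CPM in Ash1l+/-, against 339, 292 and 353 CPM in WT, and its log2 fold change in the 5 libraries was -0.04 (SE 0.07).

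Of the small heat shock genes known from muscle, 0 of 4 tested passed, and all but Hspb8 were low, at 3.85 RPKM for Hspb6 and less for the others. Hspb6 was at 10.2, 5.53 and 8.85 CPM in Ash1l+/-, against 8.99, 8.22 and 10.7 CPM in WT. Hspb2 was at 0.916, 0.858 and 1.56 CPM in Ash1l+/-, against 2.08, 7.25 and 1.66 CPM in WT. The groups of Hspb2 did not overlap, and the log2 fold change came to -0.76 (SE 0.36, adjusted p = 0.151) in the 5 libraries and -1.70 (adjusted p = 0.386) with all 6. The span of Hspb2 overlaps that of Cryab on the other strand, which had 16773 reads against 235 for Hspb2. Hspb7 had 4 to 15 reads per library, and Hspb3 at most 3. The 12 skeletal muscle markers summed to 126 to 136 CPM in Ash1l+/-, against 128, 1352 and 137 CPM in WT, and 1 of them, Tnnc2, had 0 reads. Most of that sum was Pvalb, which proprioceptive neurons also express. Acta1, the skeletal muscle actin gene, was at 0.429 to 0.687 CPM in Ash1l+/-, against 0.642, 12.5 and 1.19 CPM in WT. The part of muscle RNA in the Hspb2 value of WT replicate 2 was not tested.

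WT replicate 2 lay outside the range of the other 5 libraries in 56 of 67 tested members. It was higher than the mean of the other WT libraries by more than 1 on the log2 scale of CPM + 0.5 in 10 members and lower by more than 1 in 7. Shares of all genes are not given here for these counts. This library stood apart across all genes, as its correlations above show, so the counts are not read as a trait of the members. The highest by ratio was Dnajc17, at 4.90 times the mean of the other WT libraries. The lowest on the log2 scale was Dnaja4, a cytosolic DnaJ protein, at 47.6, 43.9 and 44.3 CPM in Ash1l+/-, against 43.2, 2.17 and 45.5 CPM in WT, with only WT replicate 2 apart. Dnajb13, a low gene with 10 to 24 reads in each other library, had 0 reads in WT replicate 2. Hspa12a was at 792, 773 and 809 CPM in Ash1l+/-, against 670, 264 and 718 CPM in WT. Across the 67 members the difference of this library from the other WT libraries had a Spearman rho of -0.47 with gene length, a description over genes of the same libraries. The endothelial HSP70 relative Hspa12b was at 22.7, 23.2 and 21.3 CPM in Ash1l+/-, against 25.7, 55.4 and 26.4 CPM in WT, without overlap, and its log2 fold change of -0.22 (SE 0.10, adjusted p = 0.151) in the 5 libraries did not pass.

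**Figure D5:**
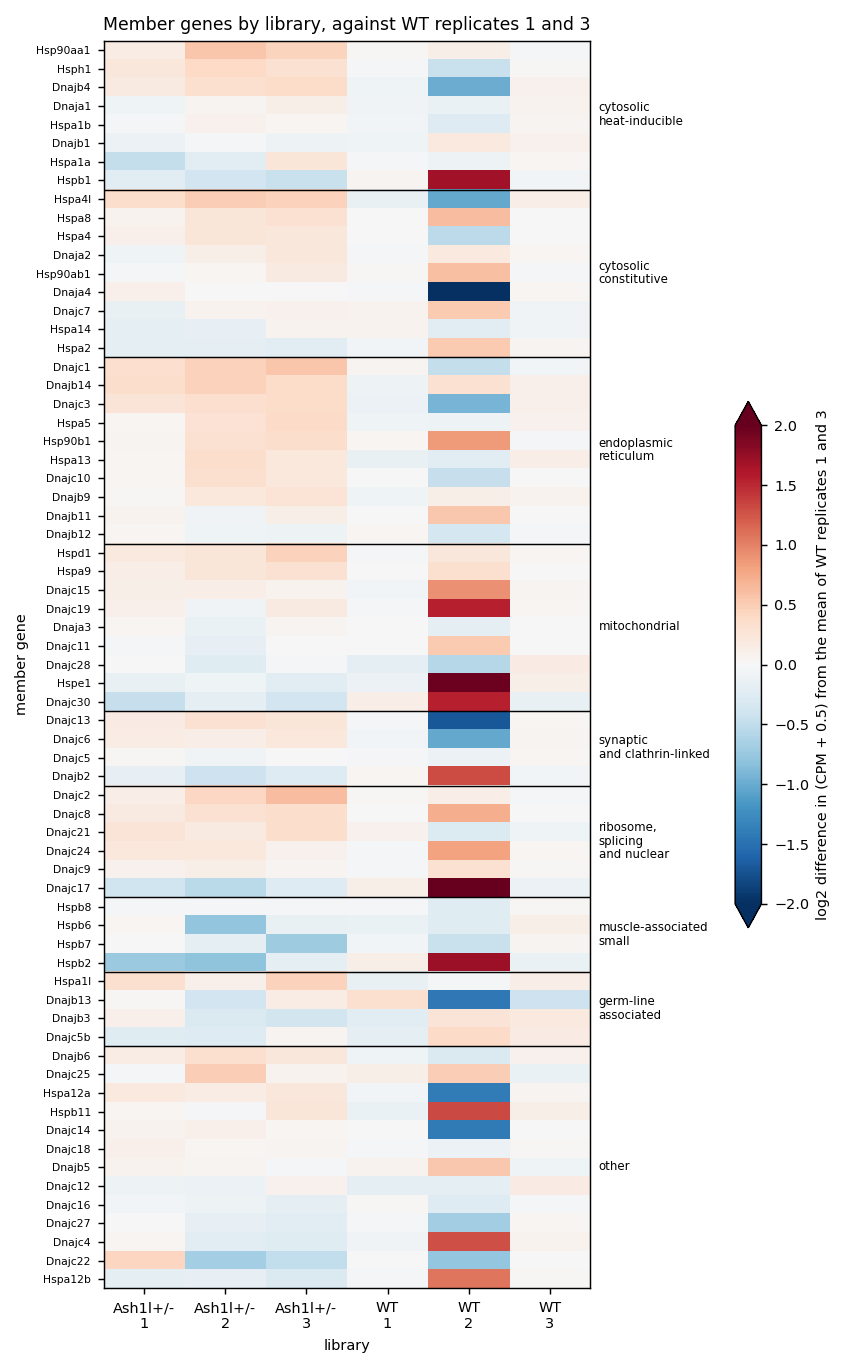
Log2 difference in CPM + 0.5 from the mean of WT replicates 1 and 3, for the 67 tested members by role (colour, drawn from -2 to 2), with the Ash1l+/- libraries left of the WT libraries. WT replicate 2 holds the strongest colours in both directions, and most ER genes are pale red in Ash1l+/- replicates 2 and 3.

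The genes that regulate and assist these chaperones were read from the same fits. None passed with all 6 libraries. Hsf1, the main transcription factor of the heat shock response, was at 31.0, 28.9 and 30.7 CPM in Ash1l+/-, against 35.4, 44.2 and 35.1 CPM in WT, without overlap. Its log2 fold change in the 5 libraries was -0.22 (SE 0.09, adjusted p = 0.113), and none of the 4 genes for heat shock factors and their binding protein Hsbp1 passed. Of 29 tested genes in the co-chaperone list, 3 rose and 6 fell in the 5 libraries, with a median log2 fold change of -0.05. The shares of all genes were the 9.39% and 10.4% given above. The list also holds Trap1, Hyou1 and Cryab, chaperones outside the name rule, which did not pass. Those that rose were Chordc1 and Ptges3, which bind HSP90, and Cdc37l1, with log2 fold changes of 0.35, 0.32 and 0.27. Stub1, the ubiquitin ligase that marks chaperone clients for degradation, Hspbp1, a nucleotide exchange factor of HSP70, and Fkbp8, an immunophilin on the mitochondrial surface, had the largest falls, with log2 fold changes of -0.59, -0.51 and -0.39. Once the trends were removed none of these 6 passed, at adjusted p from 0.0598 to 0.941, and 2 co-chaperones that had not passed before were called higher, Bag1 (0.25) and Stip1 (0.26). Without WT replicate 1, 0 co-chaperones were higher and 4 lower.

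Other parts of protein quality control moved in both directions in the 5 libraries. In the unfolded protein response of the ER 5 of 24 genes rose and 2 fell, against 9.39% of all genes higher and 10.4% lower. These shares, and 2.60% higher and 4.41% lower with the trends removed, are the background for each list that follows. The largest rises were those of the sensor Ern1 (log2 fold change 0.41), the lectin chaperone Canx (0.29) and the sensor Atf6 (0.25), and those that fell were the chaperone partner Sdf2l1 (-0.48) and the ubiquitin ligase Syvn1 (-0.44). With the trends removed 2 were called higher and 0 lower, and without WT replicate 1 the counts were 0 and 2. Of 15 genes of mitochondrial protein quality control 2 rose and 5 fell. The protease Yme1l1 and the import receptor Tomm70a rose, with log2 fold changes of 0.39 and 0.27, and the largest falls were those of Hscb, the J protein of iron-sulphur cluster assembly (-0.70), the transcription factor Atf5 (-0.63) and the protease Htra2 (-0.50). After trend removal 0 were called higher and 2 lower, the same counts as without WT replicate 1.

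Of 31 proteasome genes 0 rose and 6 fell, against 9.39% of all genes higher and 10.4% lower, led by Psmb5 (-0.60), Psmb4 (-0.41) and Psmd3 (-0.37), and after removal of the trends 2 were called higher and 6 lower, against 2.60% and 4.41% of all genes. Without WT replicate 1 these counts were 0 and 2, and without Ash1l+/- replicate 1 they were 5 and 6. None of the 8 tested genes in the TRiC chaperonin list passed before the trends were removed, and 2 fell after. This list includes the low gene Cct6b, at 0.87 to 1.985 CPM over the libraries, and lacks the subunit gene Cct6a. Of 6 prefoldin genes, 1 fell, Pfdn6 (-0.35), and with the trends removed 1 was called higher and 0 lower. Among 18 immediate early genes, which respond to handling of tissue, 1 rose, the injury-induced factor Atf3 (1.97), and 3 fell, Jund (-0.93), Egr2 (-0.72) and Nr4a1 (-0.43). Without WT replicate 1 the counts were 1 and 1. With the trends removed 2 were called higher and 2 lower, Socs3 being gained (adjusted p = 0.0327) and Nr4a1 lost (adjusted p = 0.256), against 2.60% and 4.41% of all genes. The summed level of this list was 309 to 366 CPM in Ash1l+/-, against 409, 598 and 370 CPM in WT, and its part in the values of the chaperone genes was not tested.

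Markers of other cells in the ganglion also differed in the 5 libraries, to be read against 9.39% of all genes higher and 10.4% lower. Of 7 satellite glia markers 4 were higher and 1 lower, with summed levels of 3201 to 3961 CPM in Ash1l+/-, against 3817, 10760 and 3721 CPM in WT. Most of each sum was Apoe, at 2255 to 2954 CPM in Ash1l+/-, against 2937, 9753 and 2801 CPM in WT. Apoe did not pass, so the sums do not show the markers that did. Of 8 Schwann cell markers 2 were higher and 3 lower, with sums of 4962 to 5572 CPM in Ash1l+/-, against 5682, 7464 and 5552 CPM in WT. Of 6 erythrocyte markers 3 were lower, with sums of 31.5 to 94.4 CPM in Ash1l+/-, against 80.9, 628 and 102 CPM in WT. Of 6 fibroblast markers 2 were lower, with sums of 539 to 601 CPM in Ash1l+/-, against 676, 498 and 641 CPM in WT. Once the trends were removed the counts were 1 higher and 0 lower for satellite glia, 0 and 2 for Schwann cells, 0 and 1 for erythrocytes and 0 and 2 for fibroblasts, against 2.60% and 4.41% of all genes. No marker in these lists was at 0 reads, and the part of these cells in the chaperone values was not tested.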

How the data were processed

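The authors deposited raw read counts per gene and FPKM values for 6 libraries of mouse ganglia, 3 Ash1l+/- and 3 WT, grouped by sample titles. The submitters' processing notes name HISAT2 2.0.5, featureCounts 1.5.0-p3 and the build GRCm38 (mm10), and the sources used here give no parameters. Per the labels' protocols, frozen ganglia were extracted with Trizol and sequenced from NEBNext Ultra libraries. Members, lists and the comparison without WT replicate 2 were chosen with earlier results of these data known. Genes passing filterByExpr were tested on the counts with edgeR 4.0.16 (R 4.3.3): TMM factors, a quasi-likelihood fit on genotype alone, and p-values adjusted by Benjamini-Hochberg over all genes tested. An SE is the absolute log2 fold change over the root of the F statistic. CPM and RPKM were computed from the deposited counts with TMM factors of all 6 libraries and the lengths in the table. Every pair of libraries differed by more than sampling noise (lowest chi-square per degree of freedom 3.71).

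To remove trends, loess curves (span 0.3) were fitted for each library to its deviation from the mean log2 CPM along length and along GC content of the longest GENCODE M21 transcript (found for all 72 members), and their sum entered the model as an offset. Alternatives also tried were upper-quartile and RLE factors, no filter, a filter at CPM 1, DESeq2 1.42.0, limma-voom (limma 3.58.1), limma on log2(FPKM + 1) and log2(FPKM + 0.1) of the authors' FPKM, the replicate number as a block and leaving out each library. The fits were also run on simulated data, with means and spread taken from the 5 libraries. These data cannot speak for a fit with WT replicate 2 or for genes of few reads, and no result here rests on them. Genes named in the text were the main chaperones of each compartment, the small heat shock genes of muscle, the 6 smallest p in each direction with all libraries among members with a mean CPM of at least 1, the 8 largest fold changes in each direction among members called in the 5 libraries, those called with and without trends, the highest in each family, Hsf1, and at most 3 called genes per list and direction. Dnajb4, Dnajc8, Dnajc13, Hspa4, Hspa12a, Dnaja2, Dnaja4, Hspa1l, Dnajb13, Bag1, Stip1, Socs3 and the untested members were named after their values were seen.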

Additional observations from a re-analysis of the deposited data

How the results depend on the processing

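The comparison without WT replicate 2 was chosen with earlier results of these data known. Beyond it, no alternative was added after seeing the data. With all 6 libraries 0 members were called in either direction under each planned setting, except that leaving out 1 library gave 0 to 15 higher and 0 to 2 lower, the highest counts without WT replicate 2. In the 5 libraries without WT replicate 2, 15 members were higher and 2 lower, 2 and 1 with GC and length trends removed, and 5 and 1 on both log2(FPKM + pseudocount) scales. Leaving out a further library gave 1 to 19 higher and 0 to 2 lower, with the lowest counts without WT replicate 1 and 7 and 6 higher without Ash1l+/- replicates 2 and 3. With the replicate number as a block 20 were higher and 3 lower. For the fits without a further library, on FPKM and with the block, the shares of all genes are not given here. Deviations of same-numbered libraries from their group means had r of 0.000517, -0.0317 and 0.0378. WT replicate 2, which stood apart, enters the WT means, so these values cannot decide whether the numbers are a pairing. Directions turned for the following log2 fold changes, among them those of Dnajc2 (0.36), Dnajb14 (0.29) and, called in the 5 libraries, Hspb1 (-0.35). With all 6 libraries and trends removed these were 0.37 for Hspa1a, -0.091 for Hspa9, 0.014 for Dnajb1, -0.50 for Dnaja1, 0.12 for Hspb6, 0.092 for Hspb7, -0.050 for Dnajc2, -0.51 for Dnajb14 and -0.25 for Dnajc5. Hspa8 turned to 0.041 with upper-quartile factors, 0.019 with no filter, 0.0010 with limma-voom, 0.00089 with the block and 0.0094 on both FPKM scales. Leaving out 1 of 6 libraries gave -0.32 to 0.074 for Hspa1a, -0.13 to 0.21 for Hspa8, -0.27 to 0.066 for Hsp90ab1, -0.25 to 0.25 for Hsp90b1, -0.37 to 0.035 for Hspb6, -0.61 to 0.065 for Hspb7, -0.039 to 0.098 for Hspb8 and -0.019 to 0.061 for Dnajc5. In the 5 libraries, trend removal gave 0.19 for Hspa1a, 0.066 for Hspb1, 0.033 for Dnajb1, -0.24 for Dnaja1, 0.097 for Hspb8 and 0.037 for Hspa12b, and the block gave 0.0089 for Dnajc5. Leaving out 1 of these 5 gave -0.35 to 0.033 for Hspa1a, -0.026 to 0.084 for Hspa1b, -0.036 to 0.10 for Dnaja1 and -0.059 to 0.011 for Dnajc5. The cause of these turns was not tested. With 3 and 2 libraries per group, small differences in genes of few reads, such as Hspb2, Hspb7 and Hspa1l, may have been missed at this depth, which was not tested.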
